A study of Mus musculus with 4 samples.

Results

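The 40 genes described here encode neural cell adhesion molecules of the immunoglobulin superfamily and proteins that act with them. They were taken by name from the mouse annotation, all 40 symbols were matched, and a DHX9 peak was assigned to a gene when its midpoint lay in the gene's span. In all, 574 of the 43106 peaks (1.33%) and 40 of 21900 protein-coding genes were covered. The peaks are those called for RNA bound by DHX9, a helicase that unwinds double-stranded RNA, in neural progenitor cells derived from WT26. This is a feeder-independent male mouse embryonic stem cell line of C57BL/6x129sV background. The progenitors were grown on gelatin in N2B27 medium with EGF and FGF2, and no group received a further treatment. FLASH, a crosslinking and immunoprecipitation method that keeps the strand of the RNA, was run with a rabbit antibody to DHX9 (2 libraries, replicates A and B) and with rabbit IgG as background (2 libraries, A and B). All 4 libraries came from the same line, so they do not show how other lines behave.

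Adhesion molecules of this superfamily sit on the cell surface and bind partners of the same or a related family on the neighbouring cell. In the developing nervous system they are known for roles in axon growth, the choice of synaptic partners and the layering of the retina. The Kirrel, NCAM, L1, Cadm, Dscam and Sidekick proteins mostly span the membrane, while the IgLON proteins and the contactins are held by a lipid anchor. By immunoglobulin domain, the label fits the list with 1 exception, the contactin-associated proteins (Cntnap genes). These carry laminin G domains in place of immunoglobulin domains and belong to the neurexin superfamily. Bcan and Ncan encode brevican and neurocan, secreted proteoglycans of the brain matrix that do have an immunoglobulin domain.

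The data were 1 list of peaks for the whole series. Which libraries entered it, and how the IgG libraries were used in calling, is not given in the sources used here. The list gives no read count, score or value per library, so depth is unknown, replicate error could not be computed, and none of the differences below was tested. Every value is a count of called peaks or is computed from peak positions. A gene without a called peak may be bound below the caller's threshold, transcribed weakly, or transcribed in few of the cells, and these cannot be told apart here. The peaks were read as positions on mm10. Among 10 neural progenitor markers, 5 carried a peak, against 18.9% of all protein-coding genes. These were Slc1a3 with 122, Ptprz1 with 64, Notch1 with 21, Fabp7 with 4 and Vim with 1, while Sox2, Nes, Pax6, Hes1 and Hes5 had none. Of 7 neuronal markers only Map2 carried peaks, with 46. Of 6 oligodendrocyte lineage markers, Olig1 had 4 peaks, Olig2 had 2 and Pdgfra had 1, and none of the 4 astrocyte, 4 pluripotency or 3 endothelial markers had a peak. By span, 6 of 23 markers of all lists below 50 kb had a peak (background 13.7%) and 2 of 8 from 50 to 200 kb (35.2%). Of the longer markers, 1 of 2 from 200 to 500 kb had one (40.5%) and 0 of 1 above that (46.3%). The lists were drawn up with earlier results of these data known, and peaks do not measure expression. These counts therefore do not establish which cells were present.

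Start sites were the places where peaks could be set beside sequence. RefSeq start-site windows (GRCm38.p6, from 250 bases before to 50 after a start) were matched for 32 of the 40 genes, with 40 windows in all. Those not matched were Kirrel3, Ncam1, Cadm1, Dscaml1, Cntnap1, Cntnap4, Cntnap5a and Cntnap5c. A same-strand peak overlapped 2 of the 40 windows, at Lsamp and at Bcan. Over all protein-coding genes, 82 of 21230 windows (0.386%) were overlapped. Among genes with at least 10 peaks and a listed start, the figure was 51 of 837 genes (6.09%), and here 2 of 6. The sequences at both starts of Lsamp, and at the starts of Bcan and its relative Ncan, are shown because they set a start covered by a peak beside one that was not. Each is printed 5′ to 3′ on the gene's strand, with the 250 bases before the start and 30 after it, and capitals mark the bases covered by a peak.
Lsamp, upstream start (chr16:39984114-39984393, plus strand): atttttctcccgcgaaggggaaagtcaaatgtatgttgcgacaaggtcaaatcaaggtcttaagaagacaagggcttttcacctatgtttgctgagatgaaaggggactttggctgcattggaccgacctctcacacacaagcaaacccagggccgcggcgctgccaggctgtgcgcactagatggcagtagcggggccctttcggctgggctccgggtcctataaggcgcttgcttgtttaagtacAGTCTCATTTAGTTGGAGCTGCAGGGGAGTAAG
Lsamp, downstream start (chr16:41532576-41532855, plus strand): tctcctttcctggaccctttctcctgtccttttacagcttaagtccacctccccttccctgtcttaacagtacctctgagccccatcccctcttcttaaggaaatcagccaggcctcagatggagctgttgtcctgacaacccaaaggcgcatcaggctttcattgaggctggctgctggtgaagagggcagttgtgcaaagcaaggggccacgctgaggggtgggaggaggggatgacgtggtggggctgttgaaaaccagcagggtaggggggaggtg
Bcan (chr3:88000327-88000606, minus strand): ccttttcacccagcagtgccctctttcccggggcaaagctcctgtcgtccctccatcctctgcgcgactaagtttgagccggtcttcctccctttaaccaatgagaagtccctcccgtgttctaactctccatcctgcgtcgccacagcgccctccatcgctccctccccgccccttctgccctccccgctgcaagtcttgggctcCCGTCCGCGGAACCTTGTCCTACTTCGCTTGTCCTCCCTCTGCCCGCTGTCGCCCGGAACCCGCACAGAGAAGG
Ncan (chr8:70120815-70121094, minus strand): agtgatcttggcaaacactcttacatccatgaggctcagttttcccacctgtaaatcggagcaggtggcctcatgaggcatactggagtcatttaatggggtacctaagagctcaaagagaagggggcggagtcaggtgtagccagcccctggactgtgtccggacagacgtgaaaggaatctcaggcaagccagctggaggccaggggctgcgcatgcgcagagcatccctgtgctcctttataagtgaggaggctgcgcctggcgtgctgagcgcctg

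At Lsamp, the limbic system-associated membrane protein gene, the peak at 39984361 to 39984485 began 3 bases before the upstream start and ran into the transcript. No peak covered the downstream start, which lies 1548.46 kb further into the gene. At Bcan, the peak at 88000306 to 88000400 reached 44 bases upstream of the listed start, which itself lies 1.82 kb inside the annotated span. At Ncan, the nearest peak had its midpoint 1.04 kb after the start. The letters TATAA, searched on both strands, occur in the windows of Lsamp's upstream start and of Ncan, and in 8 of the 40 windows against 24% of all 32817 windows. The letters GGGCGG, also on both strands, occur in those of Bcan and Ncan, and in 22 of the 40 against 34.7% of all. The dinucleotide CG occurred 13 times in the median window of these genes and 6 times in the median of all. All 40 member windows belong to protein-coding genes, but only 21230 of the 32817 background windows were assigned to such genes. The sets thus differ in the kinds of gene they hold, and the letters were not compared within protein-coding genes alone. Some genes have several windows, and the windows of Cntn4 overlap each other, as do those of Cntn5. These matches describe letters only.

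Of the 40 genes, 19 (47.5%) carried at least 1 peak, against 18.9% of all protein-coding genes. At least 10 peaks were found in 8 (20%), against 4.83%. The median over all 40 was 0 peaks, as it was over all protein-coding genes, and among genes with any peak the medians were 6 and 4. These genes are long, with a median span of 305.1 kb against 17.1 kb, and longer genes carried peaks more often. Of the 14 members of 500 kb and more, 8 had a peak (57.1%), against 46.3% of all genes that long. In the class from 200 to 500 kb, 7 of 12 members had one (58.3%) against 40.5%. Between 50 and 200 kb, 2 of 3 did, against 35.2%, and below 50 kb 2 of 11 did (18.2%) against 13.7%. At least 10 peaks were found in 3 of the 14 longest members (background 18.9%), 3 of the 12 in the next class (14.8%), none of the 3 between 50 and 200 kb (11.5%) and 2 of the 11 below 50 kb (2.64%). Peak density over the 19257.1 kb of all members was 0.0298 per kb, below the 0.04 per kb of all protein-coding genes, but the direction differed by class of span. Members were denser at 500 kb and more (0.0309 against 0.0228 per kb) and below 50 kb (0.137 against 0.0576). These higher values rested on few genes. In the longest class, 287 of the members' 461 peaks lay in Kirrel3 (0.517 per kb), and all 29 peaks below 50 kb lay in Bcan and Ncan. Members were less dense from 200 to 500 kb (0.0208 against 0.0252) and from 50 to 200 kb (0.0167 against 0.0463).

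**Figure D1:**
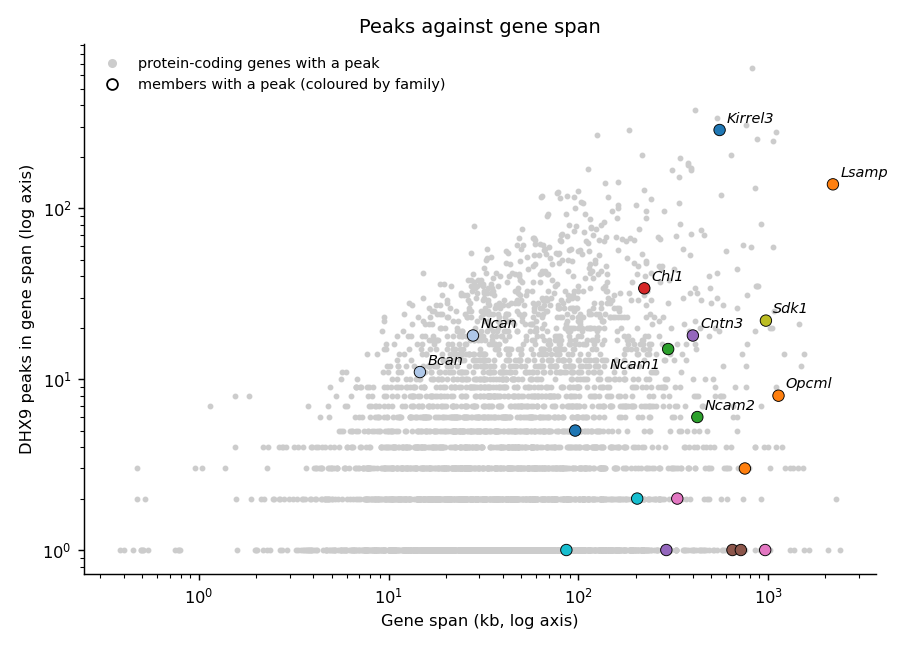
Number of DHX9 peaks against gene span in kb, both on log axes, for protein-coding genes with a peak (grey) and members with a peak (coloured by family). Kirrel3 (287 peaks) and Lsamp (138) have more peaks than every other member, and Bcan (11) and Ncan (18) are the only members under 50 kb with a peak.

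The peaks were spread very unevenly. Kirrel3 and Lsamp together held 425 of the 574 peaks (74%), and the other 17 genes with a peak shared 149. At least 6 peaks were also found in Chl1 (34), Sdk1 (22), Cntn3 (18), Ncan (18), Ncam1 (15), Bcan (11), Opcml (8) and Ncam2 (6). Kirrel had 5 peaks, Negr1 3, and Cadm1 and Alcam 2 each. Cntn1, Cntnap5b, Cntnap5c, Cadm2 and Igsf3 had 1 each. The 21 genes without a peak were Kirrel2, Ntm, Iglon5, Nrcam, Nfasc, Cntn2, Cntn4, Cntn5, Cntn6, Cntnap1, Cntnap2, Cntnap4, Cntnap5a, Cadm3, Cadm4, Dscam, Dscaml1, Sdk2, Igsf8, Igsf9 and Mcam. The median span was 401.3 kb with a peak and 276.4 kb without. The groups overlapped in span, and Cntnap2, the longest member at 2241.3 kb, had no peak.

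**Figure D2:**
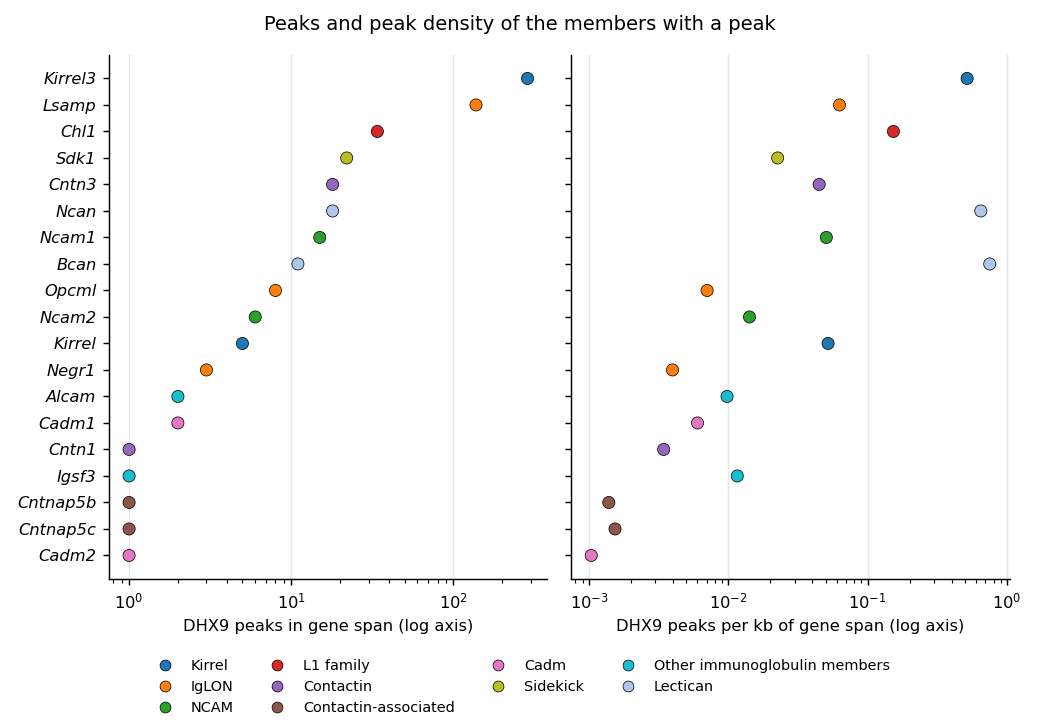
DHX9 peaks per gene (left) and peaks per kb of gene span (right), both on log axes, for the 19 members with a peak, coloured by family; the 21 without a peak are not drawn. Kirrel3 leads by number with 287, while Bcan (0.751 per kb) and Ncan (0.648 per kb) lead by density.

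By family, the Kirrel genes held 292 peaks over 660.9 kb, or 0.442 per kb, and the IgLON genes 149 over 5072.6 kb, or 0.0294 per kb. The contactins held 19 over 3389.8 kb (0.00561 per kb) and the Cadm genes 3 over 1356.4 kb (0.00221 per kb). The Dscam genes, Dscam and Dscaml1, known for keeping branches of 1 neuron apart, held 0 over 909.9 kb. The densest family was the lecticans, Bcan and Ncan, with 29 peaks in 42.4 kb (0.684 per kb). The family values rested mostly on single genes. Kirrel3 gave 98.3% of the Kirrel peaks, Lsamp 92.6% of the IgLON peaks and Cntn3 94.7% of the contactin peaks. Without these genes the densities were 0.0472 per kb for the Kirrel genes, 0.00383 for the IgLON genes and 0.000335 for the contactins. Only the NCAM genes and the lecticans had a peak in every member.

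Kirrel3 encodes an adhesion molecule that binds its own kind and is known for synapses of the hippocampal mossy fibres. Its 287 peaks (chromosome 9, 34485853 to 35040807) ranked 5th among all protein-coding genes by number. They covered 50179 bases, 9.04% of the 555.0 kb span, where the median gene of at least 200 kb with at least 10 peaks had 1.18%. All 287 lay on the plus strand and in no other annotated gene. The peaks were concentrated toward the 5′ end. Kirrel3 has no matched start, so the 5′ end was taken from the strand of its peaks, as it was for Ncam1 and Cadm1. The first 100 kb held 156 peaks (1.56 per kb), the next 100 kb held 97 and the third 100 kb held 31. Only 3 lay between 300 and 400 kb, and the last was at 323.2 kb. The remaining 231.8 kb of the gene carried no peak.

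Its relatives differed widely. Kirrel, whose protein NEPH1 joins nephrin in the kidney's filtration barrier, had 5 minus-strand peaks over 96.2 kb. They lay at 45.4, 64.9, 65.2, 65.5 and 94.1 kb from its 5′ end, so that 3 stood within a stretch of 0.69 kb and none in the first 25% of the span. Kirrel2, the shortest of the family, had none. Peak density was 0.517 per kb in Kirrel3 and 0.052 in Kirrel.

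Lsamp is the largest IgLON gene (chromosome 16, 39984254 to 42181679) and held 138 plus-strand peaks over 2197.4 kb, or 0.0628 per kb. Of these, 137 lay in no other gene and 1 also lay in the predicted gene Gm52229. The first 250 kb held 43 peaks and the next 250 kb held 60, and 112 of the 138 (81.2%) lay in the first 25% of the span. Between 500 and 750 kb there were 9 peaks, between 750 and 1000 kb there were 12, and 14 lay beyond. Seen from the starts printed above, 128 peaks lay upstream of the downstream start and 10 after it. Of those 10, 8 formed a single group of 3.09 kb that began at 41552736, about 20 kb after that start. All 128 thus lie in RNA that a transcript from the downstream start does not contain.

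The other IgLON genes had few peaks or none. Opcml, the opioid-binding cell adhesion molecule gene, had 8 over 1134.7 kb. Of these, 5 lay between 2.4 and 41.6 kb from its 5′ end and 3 between 695.4 and 697.2 kb, with none in the 654 kb between. Negr1, the neuronal growth regulator gene, had 3 peaks over 754.7 kb, all between 35.2 and 36.6 kb. Ntm (968.5 kb), which lies 69.3 kb from Opcml on chromosome 9, had none, and neither had the short gene Iglon5 (17.3 kb).

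Chl1, the close homologue of L1 and an axon guidance molecule, held 34 plus-strand peaks over 222.5 kb of chromosome 6 (0.153 per kb). They formed separate groups. The first 50 kb held 22, 5 lay between 72.8 and 83.3 kb and 7 between 167.6 and 172.2 kb. Of the 34 peaks, 1 also lay in the predicted small nuclear RNA gene Gm24784. The other L1 family genes listed, Nrcam and Nfasc, which bind ankyrins at nodes of Ranvier, had no peak in 276.4 and 177.2 kb.

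Among the contactins, which form complexes in the membrane with contactin-associated proteins and receptor phosphatases, Cntn3 carried 18 minus-strand peaks over 401.3 kb (0.0449 per kb). All 18 lay after its listed start, which is 99.95 kb inside the annotated span, and the nearest was 44.86 kb beyond it. They fell between 144.8 and 335.8 kb from the 5′ end of the span. Of the 18, 8 also lay in the long noncoding gene 4930587E11Rik, which is listed on the plus strand, opposite to the peaks. Cntn1 had 1 peak, of 85 bases, 252.4 kb from its 5′ end. Cntn2, Cntn4, Cntn5 and Cntn6 had none, although Cntn4 and Cntn5 span 1022.5 and 1270.6 kb. On chromosome 6 Cntn3, Chl1, Cntn6 and Cntn4 are spaced by 946.0, 759.6 and 814.2 kb, and the peaks were 18, 34, 0 and 0 in that order.

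The contactin-associated genes were nearly bare, with 2 peaks over 4840.2 kb (0.000413 per kb). The peak in Cntnap5b (chromosome 1, 100180090 to 100180411, 322 bases) lay on the minus strand, while the gene is listed on the plus strand. It was the only one of the 269 peaks in members with a listed strand that lay on the other strand. Among all 841 protein-coding genes with a listed strand and exactly 1 peak, the peak was on the other strand in 47 (5.59%). The peak in Cntnap5c was 22 bases long, the shortest among the members, in a list whose shortest peak was 16 bases.

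Both NCAM genes carried peaks. Ncam1, whose protein carries polysialic acid in the developing brain, had 15 minus-strand peaks over 297.3 kb (0.0505 per kb), spread from 10.0 to 266.3 kb from its 5′ end, and 3 of them also lay in Gm11149, a long noncoding gene listed on the plus strand. Ncam2, an adhesion gene of the olfactory system, had 6 plus-strand peaks over 423.6 kb. These lay at 29.1, 73.1, 96.9, 97.1, 97.5 and 346.3 kb.

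Sdk1, a Sidekick gene for layer-specific synapses in the retina, had 22 plus-strand peaks over 974.1 kb (0.0226 per kb), of which 21 (95.5%) lay in the first 25% of the span. The exception lay at 587.2 kb. Of the 22, 6 also lay in Gm16035, a long noncoding gene listed on the minus strand. Its paralog Sdk2 had none in 290.7 kb.

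The Cadm genes encode synaptic adhesion molecules. Cadm1 had 2 peaks, at 106.6 and 107.4 kb in a span of 332.1 kb, and Cadm2 had 1 in 965.5 kb. Cadm3 and Cadm4 had none in 36.2 and 22.5 kb. Of the remaining immunoglobulin genes, Alcam, whose protein binds its own kind and the lymphocyte receptor CD6, had 2 minus-strand peaks, and 1 of these also lay in the long noncoding gene Gm41461. Igsf3 had 1, and Igsf8, Igsf9 and Mcam had none.

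The lecticans were short and dense in peaks. Bcan held 11 minus-strand peaks in 14.6 kb, which covered 16.3% of the span, and Ncan 18 minus-strand peaks in 27.8 kb, which covered 15.5%. All 29 lay in no other gene. Over the 447 protein-coding genes under 50 kb with at least 10 peaks, the medians were 0.66 peaks per kb and 11.3% of the span, so Bcan lay above both medians, and Ncan above that of coverage and slightly below that of density. The value of Bcan depended on how peaks were counted: its density was 0.478 per kb, below that of Ncan, both after merging peaks within 50 bases (Ncan 0.54) and with only the longer peaks (Ncan 0.576). In Bcan, 9 of the 11 peaks formed a group of 3.28 kb whose 5′-most peak is the one over the printed start. The other 2 lay at 11.95 and 14.5 kb. In Ncan, 7 of the 18 lay in the last 25% of the span, at 24.4 kb and beyond. The median peak was 227 bases in Ncan and 176 in Bcan, against 153 in the whole list and 158 in the median gene of the short class.

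**Figure D3:**
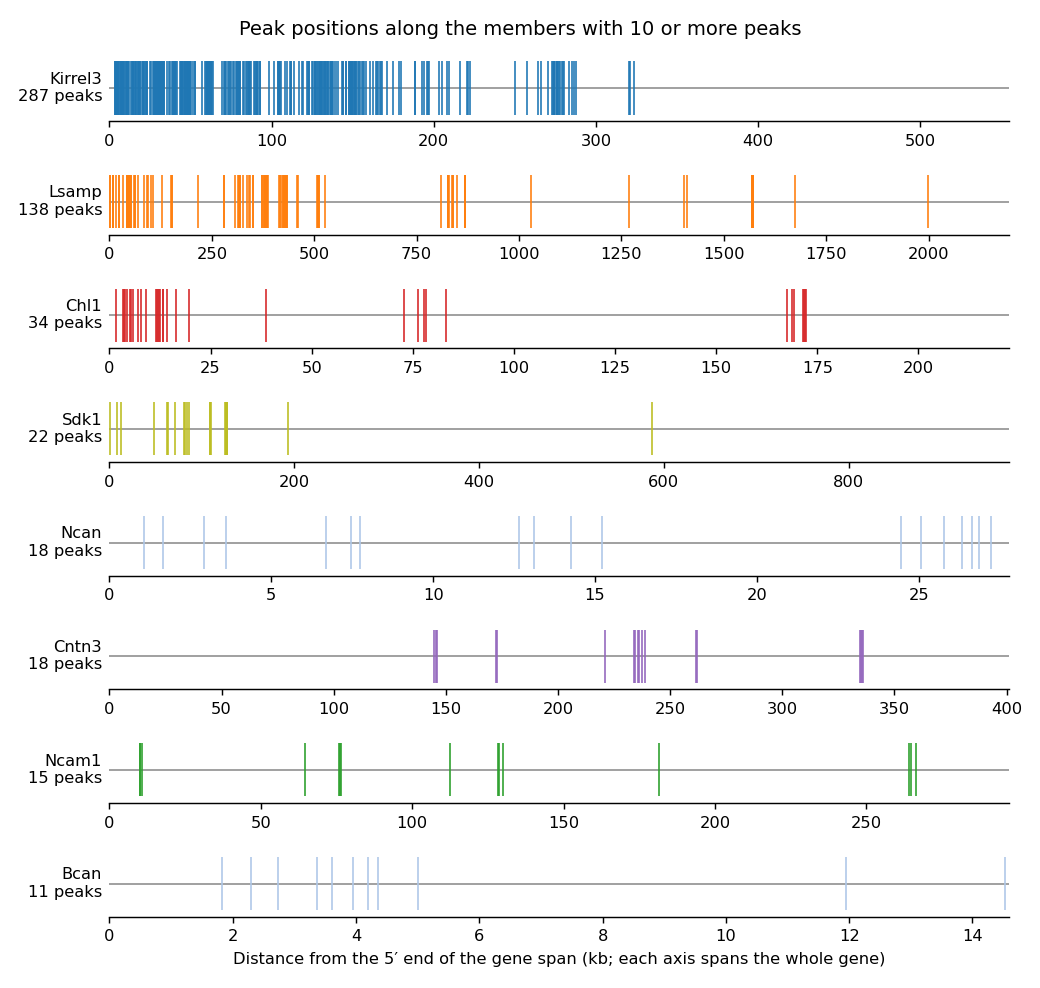
Positions of the DHX9 peaks (vertical lines) in the 8 members with at least 10 peaks, as distance in kb from the 5′ end of the gene span; each axis covers 1 whole gene, so scales differ. Kirrel3, Lsamp, Chl1 and Sdk1 are loaded toward the 5′ end, while the peaks of Ncan and Ncam1 spread over the gene and those of Cntn3 begin 144.8 kb in.

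The share of peaks in the first 25% of the span was 71.8% in Kirrel3, 81.2% in Lsamp, 64.7% in Chl1, 95.5% in Sdk1, 26.7% in Ncam1 and 0% in Cntn3. The 156 protein-coding genes of at least 200 kb with at least 10 peaks had a median of 43% and a middle range from 12.3% (25th percentile) to 70% (75th percentile). Kirrel3, Lsamp and Sdk1 were thus above that range, and Chl1 and Ncam1 within it. For Cntn3 nearly all of that stretch lies before its listed start, and measured from that start 5 of its 18 peaks (27.8%) lay in the first 25% of the remaining 301.4 kb. Introns and exons were not told apart, so these are positions in the gene and not in the mature RNA.

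Strand was uniform within every gene. All 569 peaks of the 14 members with at least 2 peaks lay on the strand of their gene's other peaks, 502 of the 574 peaks being plus-strand and 72 minus-strand. Over all protein-coding genes with at least 2 peaks, 3007 of 3076 (97.8%) had every peak on 1 strand. Against the strand listed for the gene, 268 of 269 peaks in 15 members (99.6%) lay on the sense strand, beside 98.5% of 32727 peaks over all genes with a listed strand. Of the 574 peaks, 554 lay in no other gene, and the other 20 included 8 of the 18 in Cntn3 and 6 of the 22 in Sdk1. Without shared peaks the density of the contactins was 0.00325 per kb in place of 0.00561.

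Spacing differed between the members. The median distance between neighbouring midpoints was 480 bases in Kirrel3, 825 in Lsamp and 837 over the 132 distances in all other members. Among these others it was 457 bases in Bcan, 632 in Cntn3, 703 in Ncan and 794 in Chl1, and larger in Ncam1 (1517.5) and Sdk1 (2513). Over all protein-coding genes it was 490 bases (37874 distances), and over those of at least 200 kb it was 564.5. A run was defined as at least 3 same-strand peaks with neighbouring midpoints at most 1000 bases apart. The members had 53 runs in 11 genes, which held 379 of the 574 peaks (66%), beside 68.5% over all protein-coding genes and 65.6% over those of at least 200 kb. Without Kirrel3 and Lsamp the share was 44.3% (66 of 149 peaks in 14 runs).

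Runs also differed by family. In the Kirrel genes 80.1% of peaks lay in runs, in the lecticans 65.5%, in the IgLON genes 57.0% and in the L1 family 55.9%. The share was 42.9% in the NCAM genes, 36.8% in the contactins and 27.3% in the Sidekick genes. No Cadm or contactin-associated gene had the 3 peaks that a run needs. The largest run was in Kirrel3, with 34 peaks over 13.0 kb that began 3.3 kb from its 5′ end, and this gene had 25 runs with 231 peaks. The largest in Lsamp had 17 peaks over 5.78 kb, 379.1 kb from the 5′ end. Chl1 had runs of 7, 8 and 4 peaks, Bcan 1 of 9, and Ncan 1 of 7 and 1 of 3. Within the largest runs of the 8 members with at least 10 peaks the density lay between 2.24 (Ncan) and 3.39 peaks per kb (Cntn3), and over all 53 runs between 1.42 and 4.72. The limit of 1000 bases sets a floor on these values.

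**Figure D4:**
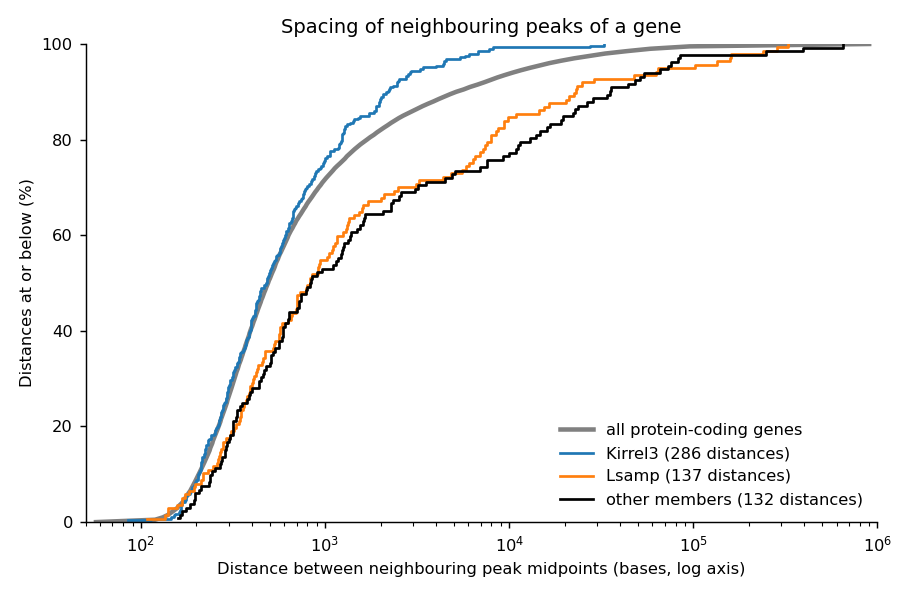
Cumulative share (%) of distances in bases (log axis) from 1 peak midpoint to the next within a gene, for Kirrel3, Lsamp, the other members and all protein-coding genes. The Kirrel3 curve (median 480 bases) follows that of all genes (490) at short distances, while Lsamp (825) and the other members (837) lie to the right.

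Other genes of the pathway were taken from a list of 46 genes, all matched. It held 15 intracellular partners, 12 ligands, receptors and modifiers, and 19 further adhesion genes. Ptprz1 is also among the neural progenitor markers above. Of the 46 genes, 18 (39.1%) had a peak, against 18.9% of all protein-coding genes, and 11 had at least 10, against 4.83%. By span, 1 of 12 below 50 kb had a peak (background 13.7%), 7 of 18 from 50 to 200 kb (35.2%), 6 of 11 from 200 to 500 kb (40.5%) and 4 of the 5 longest (46.3%). Over all genes in these classes, at least 10 peaks were found in 2.64%, 11.5%, 14.8% and 18.9%. The 11 genes, and the counts by group below, were not split by span. Among ligands, receptors and modifiers, 5 of 12 had a peak: the contactin-binding receptor phosphatase genes Ptprz1 with 64 and Ptprg with 44, the matrix gene Tnc with 24, Nrxn2 with 3 and App with 2. In no other gene lay 51 of the 64 peaks of Ptprz1 and 34 of the 44 of Ptprg. All 24 of Tnc lay in another annotated gene as well. The enzymes St8sia2 and St8sia4, which add polysialic acid to NCAM, and the lectican-cleaving proteases Adamts4 and Adamts5 had none. Among intracellular partners, 8 of 15 had a peak, led by the ankyrin genes Ank3 (34) and Ank2 (27), which encode anchors of the L1 family, and the scaffold gene Cask (16). Of 19 further adhesion genes, 5 had a peak, led by the lectican Vcan (29) and by Nptn (27), while L1cam had none.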

How the data were processed

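Bound RNA was mapped in 2 DHX9 and 2 IgG FLASH libraries, grouped by sample title. The authors deposited 1 peak list, whose measures are start and end positions (1-based), called with PEAKachu per the file itself. Random adapter tags were used to merge PCR duplicates, per the labels' protocols, which also call replicates A and B biological. Bowtie2 2.2.6 and the builds hg19 and mm10 are named in the submitters' processing notes. The caller's version, settings, threshold and use of IgG, and the handling of multiply mapping reads, are not given in the sources used here, so peaks in repeats may be placed by unknown rules. The score column is empty. Gene spans came from 49980 RefSeq genes of GRCm38.p6 (mm10), and gene strands and start sequences from RefSeq start-site windows of the same build. Exons were not used here.

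Each peak was counted for every gene whose span holds its midpoint, with pandas 2.3.3 and numpy 2.4.6 in Python 3.11.15. Intervals used to judge alternatives are 95% exact binomial (scipy 1.17.1). Counting, runs and distances were tested on simulated data. Members with at least 10 peaks, the member with the most peaks of each family, all members without a peak, and up to 3 leading genes of each other list were named by rule, while other genes named for single values were chosen after these were seen. The members and lists were chosen with earlier results of these data known, and 2 genes of the marker and partner lists are not reported here or counted. Alternatives were longer peaks, merging, any overlap, unshared peaks, 1 strand, other run definitions and leaving out leading genes.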

Additional observations from a re-analysis of the deposited data

How the results depend on the processing

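No paired analysis was possible because the peak list holds no value per library, and no replicate could be left out for the same reason. The alternatives that keep the gene's listed strand only, or leave out Kirrel3 and Lsamp together, were chosen after seeing the data. Counts, densities and distances were taken as moved past a factor of 1.5, and shares outside the 95% exact binomial interval. That interval treats peaks as independent draws, which peaks of 1 gene are not, so it served as a working limit only. Keeping the 21796 peaks of 153 bases or more left 279 of 574 peaks in 13 of 19 genes and widened the median distance from 592 to 912 bases, with fewer peaks by construction. Densities per kb were then 0.221 for Kirrel, 0.0132 for IgLON, 0.00832 for NCAM, 0.0222 for the L1 family, 0.00266 for contactin, 0.000207 for contactin-associated, 0.00791 for Sidekick and 0 for the other immunoglobulin genes. With at least 3 peaks per gene, 12 of 40 members remained, against 11.4% of all protein-coding genes. Without Kirrel3, 287 peaks were left. Without each family's leading gene, densities were 0.0472 for Kirrel, 0.00383 for IgLON, 0.0142 for NCAM, 0 for the L1 family, 0.000335 for contactin, 0.000243 for contactin-associated, 0.000976 for Cadm and 0 for Sidekick. With peaks in no other gene only, contactin fell to 0.00325, since 8 peaks of Cntn3 are shared. With the listed strand only, contactin-associated was at 0.000207. Genes without a listed strand kept all their peaks in that setting, and the peak left in this family was that of Cntnap5c, such a gene. The share of peaks in runs (66%) was 42% with 500 bases as the largest distance, 86.8% with 5000 bases, 51.7% with at least 5 peaks, 49.5% with the longer peaks, 60.3% after merging within 50 bases and 44.3% without Kirrel3 and Lsamp. The other 76 of 104 values for these results stayed within those limits. Of the densities of single genes, 221 values did too, and 19 moved: 15 with the longer peaks, 2 without shared peaks (Alcam and Cntn3), 1 after merging (Bcan) and 1 with the listed strand only (Cntnap5b). Many of the unmoved values, for families and for single genes, were fixed in advance. A gene or family without a peak stays at 0 when peaks are only dropped or merged. Keeping the majority strand could change nothing, as all peaks of a member lay on 1 strand. The number of unmoved values therefore does not measure how stable the results are. The unknown depth limits every count of 0.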
